A study of Mus musculus with 4 samples.

Results

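The fatty acid oxidation and ketogenesis genes are a module of 35 genes, which are *Ppara*, *Fgf21* and the enzymes and carriers that take up, activate and oxidize fatty acids or act on ketone bodies. They were chosen by name from the pathway, with earlier results of these data known. Where a gene had several transcripts, the one with the highest promoter-proximal mean over all 4 libraries was taken. The table of nascent transcription holds 20642 gene symbols, of which 12705 were active. A gene counted as active if it had any reads near its start and, averaged over the libraries, more than 4 normalized reads per kb of gene body. All 35 module genes were in the table and all 35 passed this filter. *Fgf21* passed it through the WT libraries only, since its density was 25.1 normalized reads per kb in WT and 3.91 in KO. Its difference is therefore described without a p-value. Counts of called genes include it unless said otherwise, and its calls are no evidence of a change.

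The data are PRO-seq libraries of liver nuclei from C57BL/6 mice on day 14 after birth. PRO-seq labels RNA that engaged RNA polymerase is making in isolated nuclei, so it reads transcription and not the amount of mRNA. The 2 WT libraries (WT1 and WT2) came from Alb-Cre mice with intact *Hdac3* (+/+), and the 2 KO libraries (KO1 and KO2) from Alb-Cre mice with *Hdac3* alleles that were both floxed (fl/fl) or 1 floxed and 1 null (fl/-). Every mouse in both groups thus carried Cre under the albumin promoter, which is active in hepatocytes, and the fl/- mice had also lost 1 allele in all their cells. For each library, 20000000 nuclei were used from a pool of 9 mice, so 18 mice per genotype gave 2 values per group. The spread between libraries is one between pools and shows nothing of single mice.

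Hepatocytes oxidize fatty acids in mitochondria and in peroxisomes. Long-chain fatty acids are bound to coenzyme A, carried into mitochondria as carnitine esters and shortened in repeated rounds of dehydrogenation, hydration, a further dehydrogenation and thiolysis. The liver turns much of the acetyl-CoA that results into ketone bodies, which other tissues burn, and suckling mice on fat-rich milk depend on this. The nuclear receptor PPARalpha, encoded by *Ppara*, is bound by fatty acids and switches on many of these genes. HDAC3 is a histone deacetylase that works in the NCoR and SMRT corepressor complexes.

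In gene bodies, 17 of the 35 module genes were called lower in KO than in WT, 4 were called higher and 14 were not called. Without *Fgf21*, which entered through WT alone, 16 of 34 were called lower. Among all active genes, 11.4% were called down and 10.4% up in the same comparison. A gene was called when its adjusted p was under 0.05 (limma on log2 of the normalized reads plus 1, Benjamini-Hochberg over the 12705 active genes) and its log2 fold change was beyond 0.6 in either direction. Without the fold threshold, 23 module genes were called down and 6 up, against 2807 down and 2161 up among the 12705 active genes. The median log2 fold change of the module was -0.56, against -0.09 for all active genes. Both KO libraries lay below both WT libraries for 24 module genes and above both for 6, and the groups overlapped for 5. For all active genes, 42.8% lay below and 27.6% lay above. The genes called down were spread over regulators, fatty acid uptake and activation, carnitine transfer, mitochondrial oxidation, auxiliary enzymes, peroxisomal oxidation (*Hsd17b4*) and *Bdh1*. The 4 called up were *Acaa1b*, *Vnn1*, *Cyp4a10* and *Ehhadh*, of which *Acaa1b* and *Ehhadh* act in peroxisomes and *Cyp4a10* in microsomes.

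**Figure D1:**
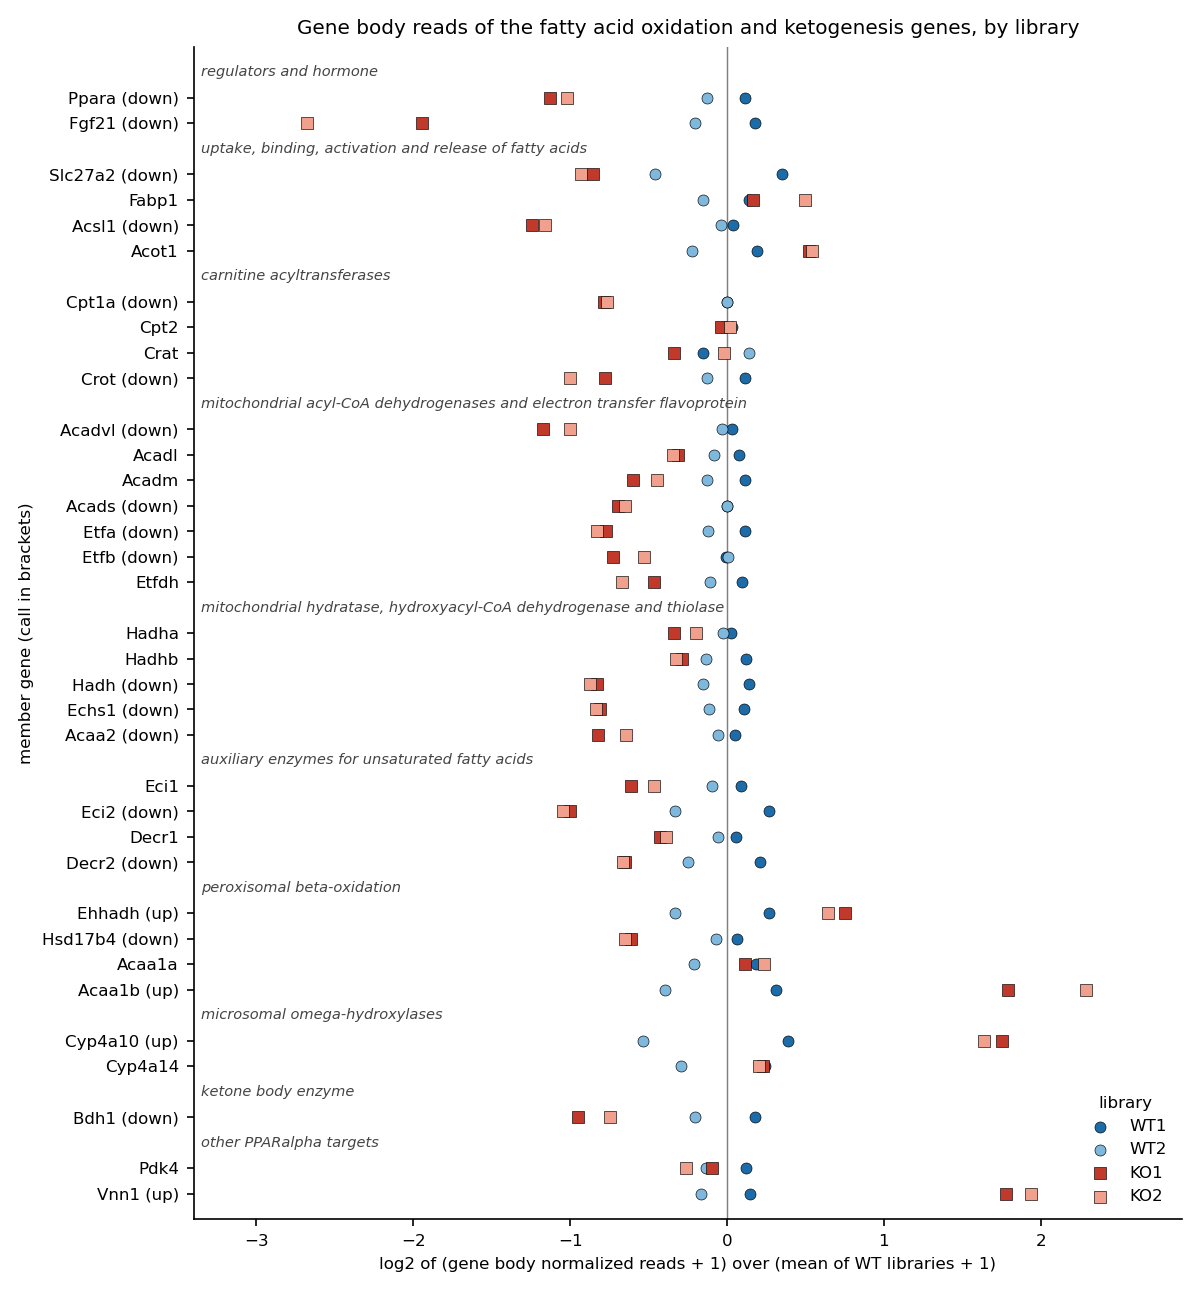
Gene body reads of each of the 35 genes in each library, as log2 of the value over the mean of both WT libraries (horizontal axis), with circles for WT and squares for KO and the genes ordered by role. Both KO squares sit left of both WT circles for 24 genes and right of them for 6, the farthest right being *Acaa1b*.

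The WT libraries differed from each other for these genes. Gene body values were higher in WT1 than in WT2 for 31 of the 35 module genes, whereas this was so for 44.5% of all active genes. The median log2 ratio of WT1 to WT2 was 0.24 in the module and -0.03 over all active genes. KO1 was higher than KO2 for 16 module genes. Out of all gene body reads, the 35 genes together took 0.780% (WT1) and 0.646% (WT2) in WT, and 0.482% (KO1) and 0.524% (KO2) in KO, so that WT2 stood between WT1 and the KO libraries. Without WT1, 13 module genes were called down and 5 up. Without WT2, 20 were called down and 3 up.

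Markers of cell types moved with the genotype as well. Of 8 hepatocyte markers, 4 were called down in gene bodies (*Alb*, *Apoa1*, *Cps1* and *Hnf4a*) and none up, also at an unadjusted p under 0.05, with log2 fold changes from -1.76 to 0.02 and a median of -0.71. Their summed gene body value was 333796 and 351642 normalized reads in WT and 193196 and 192467 in KO. All 6 stellate cell markers were called up, with sums of 8985 and 10146 in WT and 19122 and 17480.1 in KO. Of 6 endothelial cell markers, 4 were called up, with sums from 52163 to 56612 in WT and from 87011 to 97214 in KO. Of the 5 Kupffer cell and myeloid markers in the table, none passed the fold threshold, with log2 fold changes from 0.09 to 0.57. *Cd5l* and *Ptprc* were higher in KO with an adjusted p of 0.00171 and 0.0142 (limma). When gene bodies were scaled by their own median of ratios, 1 of the 5 was called up. The sums of this list ran from 15977 to 16034 in WT and from 17404 to 20745 in KO. The erythroid list had 4 of its 6 genes called down and 1 up, with sums of 887 and 1085 in WT and 528 and 480 in KO. The adipocyte list had 2 of 4 up, with *Adipoq* and *Lep* below the activity filter and sums from 96.4 to 108 in WT and from 189 to 254 in KO. The cholangiocyte list had 1 of 4 down, with *Krt7* and *Epcam* below the filter, and the 4 muscle markers were all below it. The hepatocyte sum was lower in WT1 than in WT2, but its markers went both ways. *Trf* had 40921 normalized reads in WT1 and 61546 in WT2, whereas *Cps1* had 139758 and 128681. In such bulk nuclei, fewer cells of a type and less RNA per cell cannot be told apart. The part of the cell mix in the results on the module, and in the difference between the WT libraries, was not tested.

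**Figure D2:**
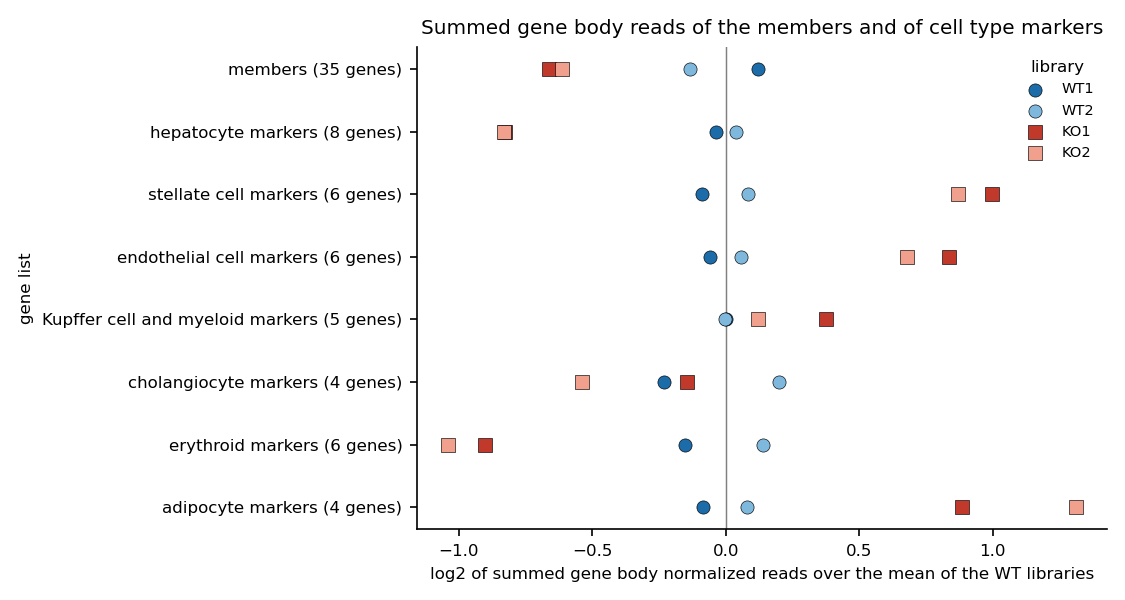
Summed gene body reads of the 35 module genes and of the marker lists of 7 cell types in each library, as log2 of the sum over the mean of both WT libraries, with circles for WT and squares for KO. The sums of the module, the hepatocyte list and the erythroid list are lower in both KO libraries, and those of the stellate, endothelial, Kupffer cell and myeloid, and adipocyte lists are higher.

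The targeted gene does not check the labels. *Hdac3* gene body values were 665, 648, 609 and 582, a log2 fold change of -0.14 ± 0.13 (SE) (adjusted p = 0.413, limma). This count covers the whole gene body and does not single out the floxed segment.

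*Ppara*, the gene of the receptor itself, fell in KO. *Ppara* (chr15:85734910-85806851, coordinates of RefSeq on GRCm38) had gene body values of 26069.7, 22004, 10974 and 11881 normalized reads, here and below in the order WT1, WT2, KO1 and KO2. Both KO values were far below both WT values. The log2 fold change was -1.07 ± 0.12 (SE) (adjusted p = 1.57e-07). Its promoter-proximal value, which counts reads in the 50 bp window with the most reads near the TSS, was 402, 351, 216 and 329 and was not called (adjusted p = 0.2). *Fgf21* encodes a hormone that the liver secretes in fasting and in suckling pups, and its gene (chr7:45613890-45615490) has a gene body of only 601 bp. The gene body held 15 and 13 reads in the WT libraries and 3 and 1 in the KO libraries, which is 28 reads against 4. After scaling, KO stood at 0.167 of WT. The promoter-proximal window of *Fgf21* held 37 reads in WT and 8 in KO, a ratio of 0.253. Both ratios rest on few reads of a gene that entered through WT alone, and they are descriptive only. The values of the window did not overlap between the genotypes either.

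Among the 4 genes for uptake, binding, activation and release of fatty acids, 2 fell and 2 were not called. *Acsl1* makes acyl-CoA from long-chain fatty acids, and its gene body values (chr8:46471037-46536051) were 30488, 28989, 12578 and 13294. Both KO values were far below both WT values, with a log2 fold change of -1.20 ± 0.12 (SE) and an adjusted p of 1.68e-08. Besides *Fgf21*, which entered through WT alone, *Acsl1* was the only module gene called down in the promoter-proximal window. It had 542, 498, 153 and 343 normalized reads there, a log2 fold change of -1.18 ± 0.30 (SE) and an adjusted p of 0.00173. The gene body call held in every alternative, and the promoter-proximal call was lost without WT1, WT2 or KO1 and without the activity filter. *Slc27a2* encodes a transporter and acyl-CoA synthetase for very long chains and had the highest level of the module in WT, 555 normalized reads per kb. Its gene body values were 24174, 13810, 10488 and 9978, with a log2 fold change of -0.84 ± 0.16 (SE) and an adjusted p of 0.000227. The WT libraries differed from each other more than WT2 did from KO, and the call was lost without WT1, without KO1, without KO2 and with DESeq2. The liver fatty acid-binding protein gene *Fabp1* and the acyl-CoA thioesterase gene *Acot1* had both KO values above both WT values, with gene body log2 fold changes of 0.34 ± 0.13 (SE) and 0.55 ± 0.20 (SE), both under the fold threshold. *Acot1* has near copies on the same chromosome (*Acot2* to *Acot5*), and reads of such copies may be assigned to the wrong gene. With scaling factors set to the gene bodies themselves (median of ratios), *Acot1* became another gene called up (5 in all).

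Among the module genes with a promoter sequence at hand, a relaxed PPARalpha response element was found in that of *Fabp1* alone. PPARalpha binds with RXR to direct repeats of AGGTCA spaced by 1 base. RefSeq promoter windows of GRCm38, from 250 bases before to 50 after a start site, were at hand for 28 of the 35 genes (not for *Crat*, *Acaa2*, *Decr1*, *Hsd17b4*, *Cyp4a10*, *Cyp4a14* and *Vnn1*). No window of the 28 held the exact repeat AGGTCANAGGTCA on either strand, which 0.0399% of 32544 distinct windows of all genes held. The relaxed form AGGNCANAGGNCA was in the *Fabp1* window alone, against 0.384% of all windows. The single half-site AGGTCA was in the windows of 6 of the 28 (*Slc27a2*, *Fabp1*, *Cpt1a*, *Acadvl*, *Acadm* and *Echs1*), against 16.2% of all windows, and a half-site inside the relaxed repeat counts for both. A match only says that the letters are present. The windows of *Fabp1* (chr6:71199629-71199928, plus strand) and *Fgf21* (chr7:45615441-45615740, minus strand), the 2 module genes with a TATAAA motif (13.6% of all windows), are shown because in gene bodies both KO values lay below both WT values for *Fgf21* and above them for *Fabp1*, which was not called. Capitals mark TATAAA, the half-sites and the relaxed repeat on either strand.
Fabp1: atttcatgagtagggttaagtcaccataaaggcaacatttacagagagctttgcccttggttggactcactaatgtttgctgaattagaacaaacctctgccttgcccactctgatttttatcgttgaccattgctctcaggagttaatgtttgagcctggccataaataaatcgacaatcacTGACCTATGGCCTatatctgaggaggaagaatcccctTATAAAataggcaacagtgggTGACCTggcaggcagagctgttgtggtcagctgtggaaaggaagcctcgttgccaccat
Fgf21: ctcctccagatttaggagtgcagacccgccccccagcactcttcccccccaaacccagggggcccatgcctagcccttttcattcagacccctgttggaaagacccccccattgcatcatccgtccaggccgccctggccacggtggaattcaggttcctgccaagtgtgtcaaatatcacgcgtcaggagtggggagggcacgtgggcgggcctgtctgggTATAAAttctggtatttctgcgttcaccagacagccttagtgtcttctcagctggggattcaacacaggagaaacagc
In *Fabp1* the relaxed repeat starts 67 bases before the start site and a second half-site 9 bases before it, and TATAAA starts 30 bases before it. In *Fgf21* TATAAA starts 28 bases before the start site.

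**Figure D3:**
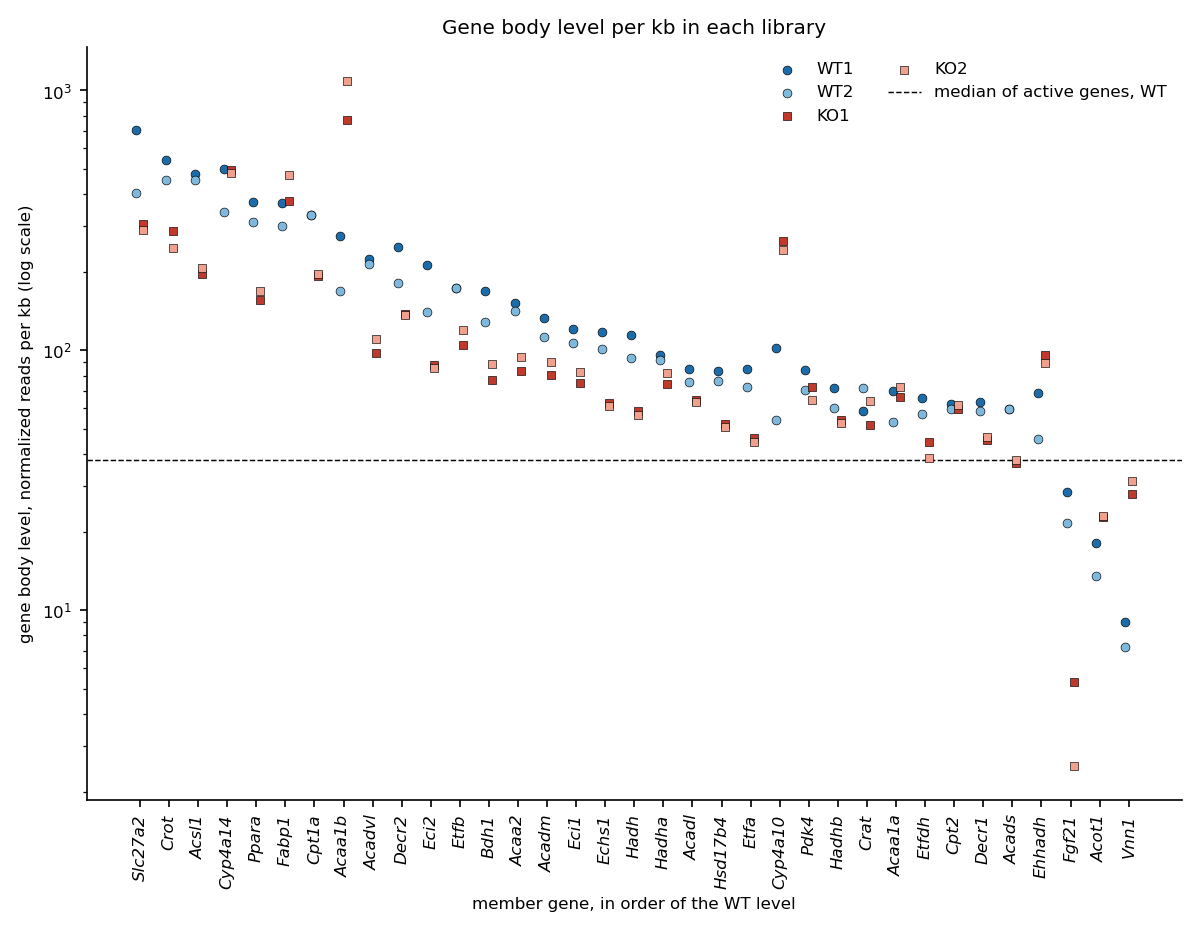
Gene body level of each module gene per kb of gene body (vertical axis, log scale) in each library, in order of the WT level, with circles for WT, squares for KO and a dashed line at the WT median of all active genes, 37.7 normalized reads per kb. In WT, 32 of the 35 genes lie above the line, and *Acaa1b* moves from the eighth to the highest place in KO.

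Of the 4 carnitine acyltransferases, *Cpt1a* and *Crot* fell in gene bodies and *Cpt2* and *Crat* did not pass the test. *Cpt1a* encodes the outer mitochondrial membrane enzyme that sets the rate of entry of long-chain fatty acids. Its gene body values were 20436, 20467, 11888 and 12055, nearly equal within each genotype, with a log2 fold change of -0.77 ± 0.11 (SE) and an adjusted p of 5.77e-06, and the call held in every alternative. The promoter-proximal values of *Cpt1a* went the other way, 904, 1009, 1241 and 1641, and were not called (adjusted p = 0.0958). Its pausing index, the density in the promoter-proximal window over that in the gene body, was 54.4, 60.6, 128 and 167 and was called up, with a log2 fold change of 1.35 ± 0.41 (SE) (adjusted p = 0.0207). The *Cpt1a* promoter (chr19:3323051-3323350, plus strand) is shown as that of the entry enzyme, with its half-site, read as TGACCT on this strand, and a CCAAT motif in capitals.
Cpt1a: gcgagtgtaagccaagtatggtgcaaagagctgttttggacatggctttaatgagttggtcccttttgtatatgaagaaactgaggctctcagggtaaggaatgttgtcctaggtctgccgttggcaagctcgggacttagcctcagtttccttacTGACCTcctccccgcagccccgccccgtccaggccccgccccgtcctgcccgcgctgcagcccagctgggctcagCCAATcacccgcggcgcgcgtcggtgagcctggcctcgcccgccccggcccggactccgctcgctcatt
*Crot*, which makes carnitine esters in peroxisomes, had gene body values of 16184, 13654, 8693 and 7443, a log2 fold change of -0.89 ± 0.12 (SE) and an adjusted p of 2.17e-06. *Cpt2*, which reverses the carnitine transfer inside mitochondria, had overlapping gene body values of 1161, 1110, 1106 and 1151. Its promoter-proximal values were 464, 349, 609 and 875, higher in both KO libraries and called up, with a log2 fold change of 0.86 ± 0.29 (SE) and an adjusted p of 0.0195. The median of all active genes in this region was 0.56. *Crat*, the carnitine acetyltransferase, had overlapping gene body values.

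The acyl-CoA dehydrogenases take the first step of each round in mitochondria, and the electron transfer flavoprotein carries their electrons to the respiratory chain. In all 7 genes of this group both KO values were below both WT values, and 4 were called down. The largest fall was that of *Acadvl*, the very-long-chain enzyme (chr11:70010183-70015428). It had gene body values of 950.0, 910, 413 and 465, a log2 fold change of -1.08 ± 0.13 (SE) and an adjusted p of 5.25e-07, called in every alternative. *Acads*, the short-chain enzyme, had values of 477, 478, 295 and 304, a log2 fold change of -0.67 ± 0.14 (SE) and an adjusted p of 0.000643. *Acadl* and *Acadm*, the long- and medium-chain enzymes, had log2 fold changes of -0.33 ± 0.11 (SE) and -0.52 ± 0.12 (SE), within the fold threshold. Both subunits of the flavoprotein fell. *Etfa* had gene body values of 4836, 4112, 2619 and 2519 and a log2 fold change of -0.80 ± 0.11 (SE) (adjusted p = 3.78e-06). *Etfb* had gene body values of 2189, 2206, 1329 and 1519.8 and a log2 fold change of -0.63 ± 0.11 (SE) (adjusted p = 9.7e-05), and *Etfdh*, the oxidoreductase that accepts their electrons, had a log2 fold change of -0.56 ± 0.12 (SE) that stayed within the threshold. The calls of *Acads* and *Etfb* were lost when gene bodies were scaled by their own median of ratios, and that of *Etfb* also without KO1. In GRCm38, *Etfb* and *Etfdh* overlap other annotated transcripts on their own strand, whose reads cannot be separated from theirs. In the promoter-proximal window none of the 7 was called, and all 7 had log2 fold changes above 0, from 0.13 to 0.80. Of all active genes 84.2% were above 0 there, with a median of 0.56, and only 1 of the 7 exceeded that median. *Acadvl* and *Acads* were called up in the pausing index, from 62.3 and 61.2 in WT to 148 and 140.3 in KO and from 27.7 and 23.5 in WT to 48.4 and 67.3 in KO.

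Of the 5 genes for the later steps of the mitochondrial round, 3 fell in gene bodies, and in all 5 both KO values were below both WT values. *Echs1*, the short-chain enoyl-CoA hydratase, had values of 1145, 982, 607 and 595 and a log2 fold change of -0.82 ± 0.13 (SE) (adjusted p = 1.56e-05). *Hadh*, the short-chain hydroxyacyl-CoA dehydrogenase, had gene body values of 4292, 3505, 2196 and 2129 and a log2 fold change of -0.84 ± 0.11 (SE) (adjusted p = 2.65e-06). *Acaa2*, the mitochondrial thiolase, had gene body values of 3966, 3683, 2167 and 2444 and a log2 fold change of -0.73 ± 0.11 (SE) (adjusted p = 1.02e-05). These 3 falls were of a like size, to between 0.558 and 0.602 of the WT level. *Hadha* and *Hadhb*, the subunits of the trifunctional protein that does these steps for long chains, were not called in gene bodies, with log2 fold changes of -0.27 ± 0.11 (SE) and -0.30 ± 0.12 (SE). They lie head to head on chromosome 5, with RefSeq start sites 273 bp apart, and their 300-base promoter windows share 228 bases. *Hadha* was called up in the promoter-proximal window, where it had 139, 124, 203 and 301 normalized reads. Its log2 fold change there was 0.91 ± 0.32 (SE) (adjusted p = 0.0255). *Hadhb*, with from 2769 to 4480 normalized reads in its window, was not called (adjusted p = 0.637). By its gene body length, and if both end at the same base, the *Hadha* transcript of the table starts 1120 bp upstream of the RefSeq start. The promoter-proximal window of *Hadha* would then lie within the *Hadhb* gene, on the other strand, and its counted gene body would take in the RefSeq start. These *Hadha* values may therefore not be those of its RefSeq promoter.
*Hadh*, *Echs1* and *Hadha* were called up in the pausing index. It rose from 21.9 and 20.2 in WT to 38.2 and 67.1 in KO for *Hadh*, 81.3 and 93.7 in WT to 169 and 201 in KO for *Echs1* and 29.0 and 26.9 in WT to 54.4 and 73.6 in KO for *Hadha*.

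All 4 auxiliary enzymes, which move or reduce the double bonds of unsaturated fatty acids, had both KO values below both WT values, and 2 were called down. *Eci2*, an enoyl-CoA isomerase of peroxisomes and mitochondria, spans chr13:34977748-35027115 in RefSeq, but the counted gene body was only 15397 bp long. Its gene body values were 3278, 2161, 1357 and 1315, with a log2 fold change of -0.99 ± 0.14 (SE) and an adjusted p of 4.67e-06. *Decr2*, the peroxisomal dienoyl-CoA reductase, had gene body values of 1992, 1449, 1097 and 1086 and a log2 fold change of -0.64 ± 0.13 (SE) (adjusted p = 0.000434). WT1 stood above WT2 in both genes by more than the KO libraries differed from each other, and the *Decr2* call was lost without WT1 and with scaling by the gene bodies' own median of ratios. Their mitochondrial counterparts *Eci1* and *Decr1* had log2 fold changes of -0.54 ± 0.12 (SE) and -0.41 ± 0.11 (SE), within the threshold. The pausing index of *Eci2* was 20.8, 31.9, 69.8 and 71.5, with a log2 fold change of 1.45 ± 0.39 (SE) and an adjusted p of 0.00989.

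Peroxisomal oxidation went in both directions, with 2 of its 4 genes called up and 1 down. *Acaa1b* and *Acaa1a* encode the peroxisomal thiolases B and A and lie on chromosome 9 (*Acaa1b* at chr9:119148043-119157093 and *Acaa1a* at chr9:119341028-119350296). *Acaa1b* had gene body values of 2217, 1359, 6187 and 8738, the largest rise of the module, with a log2 fold change of 2.08 ± 0.17 (SE) and an adjusted p of 9.72e-10. It stood at 4.23 times the WT level, and per kb it rose from 222 to 927 normalized reads, the highest level of the module in KO. *Acaa1a* had overlapping values of 556, 423, 530.4 and 577 (adjusted p = 0.331). The 2 genes are close paralogs, and reads that fit both may have been dropped or assigned to either, so the size of the difference between them is uncertain. Their promoters are shown because 1 gene was called and its copy was not, with CCAAT motifs of either strand in capitals, a motif in the windows of 12 of the 28 genes and in 37.4% of all windows.
Acaa1b (chr9:119157044-119157343, minus strand): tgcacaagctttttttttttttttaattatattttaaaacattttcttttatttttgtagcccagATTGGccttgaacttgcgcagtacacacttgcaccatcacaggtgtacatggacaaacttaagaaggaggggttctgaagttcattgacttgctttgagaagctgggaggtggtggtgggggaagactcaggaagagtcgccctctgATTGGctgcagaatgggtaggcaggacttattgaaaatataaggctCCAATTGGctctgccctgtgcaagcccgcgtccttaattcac
Acaa1a (chr9:119341044-119341343, plus strand): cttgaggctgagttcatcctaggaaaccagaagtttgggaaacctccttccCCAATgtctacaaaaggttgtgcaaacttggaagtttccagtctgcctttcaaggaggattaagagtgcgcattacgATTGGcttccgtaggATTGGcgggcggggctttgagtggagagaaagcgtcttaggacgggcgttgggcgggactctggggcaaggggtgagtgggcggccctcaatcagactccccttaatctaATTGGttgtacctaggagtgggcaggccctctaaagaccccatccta
Each window held 4 matches, of which 2 in *Acaa1b* overlapped each other. The GC content of the window was 43.7% in *Acaa1b* and 53.3% in *Acaa1a*. Promoter-proximal values of *Acaa1b* were 53.9, 33, 53.0 and 68.3 and overlapped between the genotypes, so its pausing index fell from 3.92 and 3.91 in WT to 1.38 and 1.26 in KO (log2 fold change -1.58 ± 0.45 (SE), adjusted p = 0.0151). *Ehhadh* encodes the bifunctional enzyme that hydrates and dehydrogenates acyl-CoA in the classical peroxisomal route. Its gene body values were 1758, 1161, 2457 and 2280.5, with a log2 fold change of 0.73 ± 0.14 (SE) and an adjusted p of 0.000226, and the call was lost without WT2 or KO1. *Hsd17b4*, the bifunctional enzyme of the route for branched chains and bile acid precursors, went the other way, with 5594, 5096, 3490.0 and 3399, a log2 fold change of -0.63 ± 0.11 (SE) and an adjusted p of 4.38e-05. The *Hsd17b4* call was lost without WT1 and with scaling by the gene bodies' own median of ratios.

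The 2 microsomal omega-hydroxylases oxidize fatty acids at the far end of the chain. *Cyp4a10* (chr4:115518287-115533649) had gene body values of 1471, 774, 3786 and 3497, with both KO libraries over 2 times either WT library, a log2 fold change of 1.77 ± 0.18 (SE) and an adjusted p of 2.98e-08. Its promoter-proximal values of 96.4, 80, 107 and 114 were not called, and its pausing index went from 18.8 and 29.7 in WT to 8.13 and 9.35 in KO (log2 fold change -1.44 ± 0.42 (SE), adjusted p = 0.0168). *Cyp4a14*, its neighbour on chromosome 4, had gene body values of 4444, 3060, 4403 and 4323, with WT1 at the level of KO, and was not called (adjusted p = 0.155). Genes of this cluster are near copies of each other, so the share of reads that each received is uncertain.

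*Bdh1* was the only ketone body enzyme of the module. It interconverts acetoacetate and 3-hydroxybutyrate, the main ketone body in blood. Its gene body values (chr16:31422297-31458901) were 6009, 4595, 2740.0 and 3167, with a log2 fold change of -0.83 ± 0.12 (SE) and an adjusted p of 8.19e-06.

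Of the 2 other PPARalpha targets, *Vnn1*, which encodes a pantetheinase of the coenzyme A cycle, was called up. It was the least transcribed member in WT, at 8.14 normalized reads per kb, and its gene body values were 87.2, 70, 272 and 304, with a log2 fold change of 1.86 ± 0.19 (SE) and an adjusted p of 5.71e-08. The gene body call held in every alternative. Its promoter-proximal values were 5.74, 9, 13.8 and 24.3, called up with a log2 fold change of 1.24 ± 0.46 (SE) (adjusted p = 0.033) on few reads. *Pdk4*, a kinase that switches off pyruvate dehydrogenase, had overlapping gene body values of 1004, 839, 862 and 769.8 (adjusted p = 0.314).

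The promoter-proximal region gave another picture than the gene body. With the deposited factors, 3 module genes were called up (*Cpt2*, *Hadha* and *Vnn1*) and 2 down (*Acsl1* and *Fgf21*, the latter admitted through WT alone), against 25.8% of active genes called up and 2.20% called down. The log2 fold change was above 0 for 24 of the 35 module genes, against 84.2% of all active genes, and above the median of all active genes for only 7. Promoter-proximal windows took 10.3% (WT1) and 9.38% (WT2) of the reads on genes in WT, and 13.6% (KO1) and 17.0% (KO2) in KO, so the direction of a change in this region depends on the scaling. With factors set within the region by median of ratios, no module gene was called up by limma, also at an unadjusted p under 0.05, and 9 were called down, against 4.99% and 7.41% of active genes. With the deposited factors, edgeR called 3 up and 2 down and DESeq2 2 up and 1 down. The 9 were *Ppara*, *Fgf21* (admitted through WT alone), *Slc27a2*, *Acsl1*, *Crat*, *Crot*, *Acaa2*, *Eci1* and *Decr2*, with log2 fold changes from -2.28 to -0.71. The 3 rises with the deposited factors were also lost with the replicate number as a block, where their adjusted p ran from 0.0699 to 0.0774, and no module gene was called up in this region without WT1, WT2 or KO2.

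**Figure D4:**
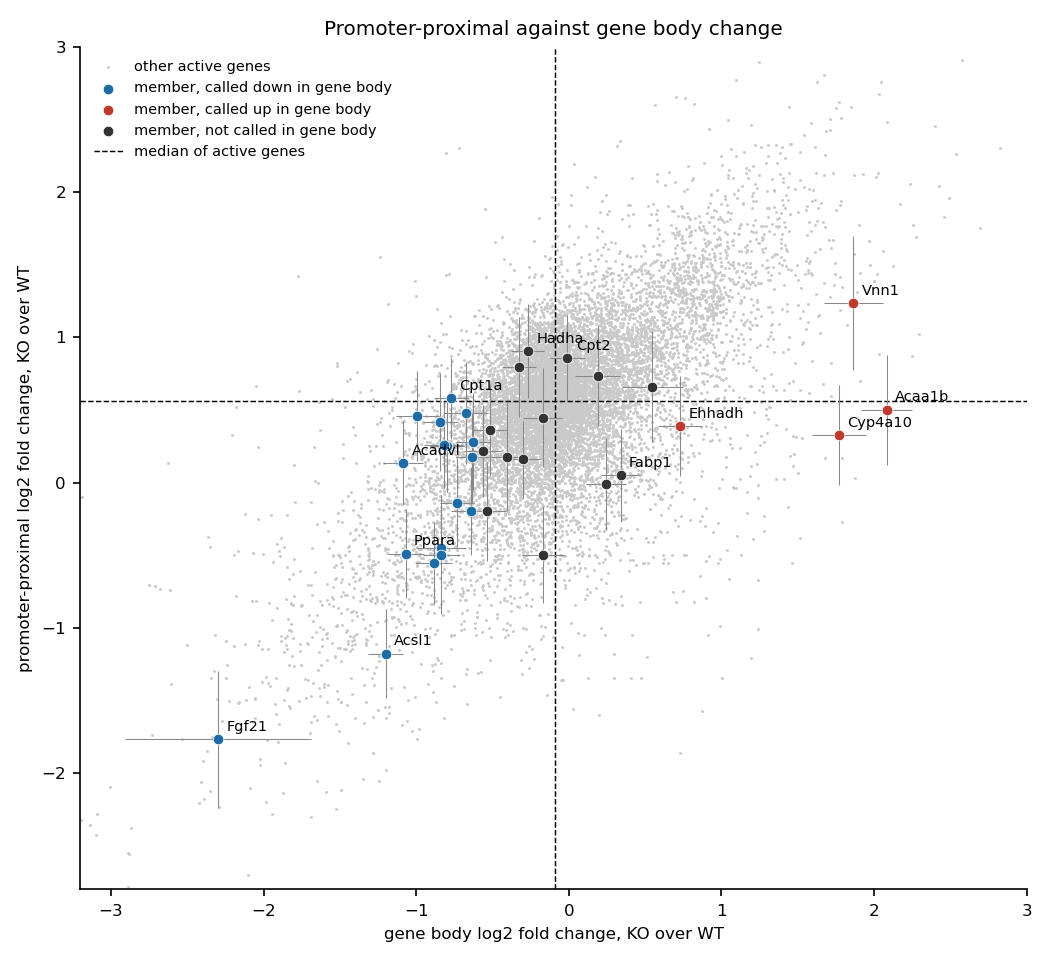
Log2 fold change of KO over WT in the promoter-proximal window (vertical axis) against that in the gene body (horizontal axis), with the deposited factors. Grey points are active genes (17 lie outside the axes), coloured points with bars of 1 SE are the 35 module genes by their gene body call, and dashed lines are the medians of all active genes, -0.09 and 0.56. Genes called down in gene bodies lie left of the vertical line and, but for *Cpt1a*, below the horizontal one.

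The pausing index was called up for 7 module genes (*Eci2*, *Cpt1a*, *Hadh*, *Acadvl*, *Hadha*, *Acads* and *Echs1*) and down for 2 (*Acaa1b* and *Cyp4a10*). For all active genes, 11.2% were called up and 0.543% down, and the median log2 fold change was 0.61, against 0.58 in the module. With factors set within each region, no module gene was called in either direction by limma, although 3 rose and 7 fell at an unadjusted p under 0.05. The same was so with the replicate number as a block, where 9 rose and 2 fell at an unadjusted p under 0.05. Leaving out KO1 raised the number of module genes called up to 16, and leaving out WT1, WT2 or KO2 lowered it to 0. KO2 was the library with the fewest reads on genes (16628518, against 22801905 to 26190040 in the others) and the largest promoter-proximal share.

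Beyond the module, 96 further genes of fatty acid and ketone body metabolism were listed, of which 91 were active. In gene bodies, 34 of the 91 were called down and 8 up, with a median log2 fold change of -0.41, against 11.4% and 10.4% of all active genes. In promoter-proximal windows, 7 were called down and 14 up with the deposited factors, against 2.20% and 25.8% of all active genes, and 20 down and 2 up with factors set within the region by median of ratios, against 7.41% and 4.99%. Among the 14 was *G0s2*, named after its values were seen, which passed the activity filter through KO alone, and without it and *Fabp2*, which passed through WT alone and was not called, 13 of 89 were up. By group, 3 of 6 ketone body genes were called down in gene bodies, 7 of 15 peroxisomal genes down and 2 up, 8 of 21 mitochondrial genes down and 3 up, 4 of 16 uptake and activation genes down and 2 up, 4 of 7 omega-oxidation genes down, 3 of 13 receptors, coregulators and fasting factors down, and 5 of 13 other PPARalpha targets down and 1 up.

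The largest fall among them was that of *Ppargc1a*, a coactivator of PPARalpha that drives oxidative genes, with gene body values of 7414, 7199, 1770.5 and 1351 and a log2 fold change of -2.24 ± 0.12 (SE) (adjusted p = 3.73e-12). *Lpin1*, a phosphatidate phosphatase that also coactivates PPARalpha, had gene body values of 18609.7, 13655, 4028 and 3193 and a log2 fold change of -2.15 ± 0.13 (SE) (adjusted p = 3.78e-11). Both were called down in the promoter-proximal window as well, with log2 fold changes of -1.26 ± 0.33 (SE) and -1.70 ± 0.38 (SE). In peroxisomes, *Acox2*, the oxidase for branched chains and bile acid precursors, fell by 1.44 on the log2 scale, *Amacr*, the racemase of the same route, by 1.48, *Pecr*, a trans-enoyl-CoA reductase, by 1.49, and *Pex11a*, which acts in peroxisome division, by 1.39. The medium-chain synthetase gene *Acsm3* fell by 1.68 and the lipid droplet gene *Plin5* by 1.42. *Cyp4a31*, a further gene of the cluster that holds *Cyp4a10*, had gene body values of 2259, 1662, 759.5 and 521 and fell by 1.62, opposite to *Cyp4a10*. Of the named genes that rose, *Fabp4*, a fatty acid-binding protein of adipocytes, macrophages and endothelium, had gene body values of 168, 250, 571 and 541 and a log2 fold change of 1.44 ± 0.17 (SE). In gene bodies, 4 of 6 endothelial and 2 of 4 adipocyte markers were called up, and no Kupffer cell and myeloid marker was called. Any part of the cell mix in the rise of *Fabp4* was not tested. The mitochondrial thioesterase gene *Acot2*, a near copy of *Acot1*, was called up in both regions, with log2 fold changes of 1.37 ± 0.32 (SE) in the window and 1.14 ± 0.25 (SE) in the gene body. The call in the window was kept with factors set within the region. *Slc27a1*, a fatty acid transporter, was called up in the promoter-proximal window and not in the gene body, with a log2 fold change of 1.44 ± 0.37 (SE) that was not called with factors set within the region.

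The deposited list of 2282 enhancers, made from the reads of all 4 libraries together, gives positions (mm10) and the closest active gene but no values per library. A module gene was the closest gene of 15 enhancers, which belonged to 8 module genes (22.9% of 35), whereas 10.9% of all active genes were closest to an enhancer. Of the 8 genes, 7 were called down in gene bodies (*Acsl1*, *Bdh1*, *Crot*, *Eci2*, *Hadh*, *Ppara* and *Slc27a2*) and *Pdk4* was not called, and of the other 27 module genes 10 were called down. Of the 1379 active genes closest to an enhancer, 14.2% were called down and 13.2% up. *Acsl1* had 5 such enhancers, from chr8:46362685-46365881 to chr8:46408382-46410589 and from 105.161 to 60.453 kb from the gene, with annotated predicted genes (*Gm30931* and *Gm45253*) over 3 of them. *Crot* had 3 on chromosome 5, from 34.864 to 49.712 kb away, and the predicted gene *Gm40264* lay over all of them. *Ppara* had 2, a short 1 at chr15:85633556-85636050 and a long 1 at chr15:85640475-85669171 with 3 centers, 99.514 and 66.393 kb away, and both held a center listed in FANTOM5. The predicted gene *Gm49539* lay over the long 1. The enhancer of *Slc27a2* (chr2:126531503-126547727) lay 5.297 kb from it, and that of *Bdh1* (chr16:31411902-31413174) 9.123 kb. Predicted genes lay over both (*Gm26697* and *Gm49736*). The enhancer of *Eci2* (chr13:35013654-35024727) lay inside the annotated *Eci2* span, with a listed distance of 19.51 kb. That of *Hadh* (chr3:131018639-131020068) was the farthest, at 251.969 kb. Within 50 kb the list linked enhancers to 5 module genes, and by chromatin contacts of the 4DGenome database to 24. The share of all active genes was not counted for either kind of link. Neither count can therefore be read as a trait of the module.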

How the data were processed

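Per the paper's methods, the authors trimmed the PRO-seq reads with cutadapt, used Bowtie2 to align them to mm10, left out ribosomal RNA and mapping qualities under 10, and counted reads per RefSeq transcript with NRSA. The promoter-proximal value counts the 50 bp window with the most reads within 500 bp of the TSS, and the gene body value counts reads from 1 kb past the TSS. The deposited values of WT2 are read counts. Those of WT1, KO1 and KO2, and all densities, were deposited as signal, which is counts multiplied by 1 factor per library (1.15, 1.06 and 1.52, and 1 for WT2). Dividing by the factors gave whole reads (within 0.01) for 100% of values, from 16628518 to 26190040 reads on genes per library. No spike-in enters these factors.

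For each symbol, the transcript with the highest mean promoter-proximal value was kept. KO and WT were compared with limma 3.58.1 (trend, pseudocount 1, no block) in R 4.3.3, and the pausing index as the difference of log2 values. Each group has 2 libraries, too few for a permutation test. Alternatives were edgeR 4.0.16 and DESeq2 1.42.0 on recovered reads, other scalings, pseudocounts, filters and transcripts, a replicate block, and leaving out each library. Tables and plots used Python 3.11.15, pandas 2.3.3 and matplotlib 3.10.9.

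The members, gene lists and thresholds were chosen with earlier results of these data known. Every called module gene is named with its library values, and at most 12 other pathway genes, those called with the largest changes in either region and a mean of at least 50 normalized reads in it. Gene spans and promoter windows come from RefSeq on GRCm38.p6, of which mm10 is the same build. The enhancer list has positions and distances in bp and no p-values, and no column of the authors' comparisons was used.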

Additional observations from a re-analysis of the deposited data

How the results depend on the processing

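In gene bodies, the number of module genes called stayed within 1.5 times of 17 down and 4 up under all alternatives but 1. Without the activity filter 4 were called down and 1 up (15 and 3 at an unadjusted p under 0.05), and the cause was not tested. Leaving out 1 library gave from 13 to 20 down and from 3 to 5 up. Promoter-proximal calls, 2 down and 3 up, were less stable. Scaling within the region gave 9 down and 0 up by median of ratios and 9 down and 0 up by TMM, since it moves the median of all genes from 0.56 to about 0. DESeq2 gave 1 down and 2 up, and no activity filter gave 0 down and 0 up (1 and 2 at an unadjusted p under 0.05). Leaving out 1 library gave from 0 to 1 down and from 0 to 4 up. For the pausing index, 2 down and 7 up, median of ratios gave 0 and 0, TMM 0 and 0, no activity filter 0 and 0, a pseudocount of 0.1 gave 2 and 4, and leaving out 1 library gave from 0 to 2 down and from 0 to 16 up. A left-out library leaves its group with 1 sample, which is assumed to vary like the other group. No log2 fold change of a called gene changed its sign in any setting.

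The labels give same-numbered libraries a number in common, and whether these were prepared together is not stated. The correlations that follow cannot decide it, with only 2 libraries per group. From the mean of its group, WT1 deviated with a correlation to KO1 of 0.019 in gene bodies, -0.105 in promoter-proximal windows and -0.069 in the pausing index. With the replicate block, gene body calls stayed at 17 down and 4 up, promoter-proximal calls were 2 down and 0 up, and pausing index calls were 0 down and 0 up. A crossed pairing, chosen after seeing the data, gave 2 down and 5 up in promoter-proximal windows and 2 down and 13 up in the pausing index.

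Depth limited *Fgf21*, with 4 KO reads in its gene body. Only 2 pooled libraries stand for each genotype.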
